A study of Rattus norvegicus with 19 samples.

Results

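Max, the obligate partner of the Myc transcription factors, was described here together with Myc and Mycl, the cyclin gene Ccnd1 and 6 nucleolar genes, Polr1b, Nop58, Rrs1, Ddx18, Ncl and Npm1. These 10 genes were listed by symbol and chosen with the group differences of these same arrays known, not selected on a threshold, and each was carried by 1 of the 13259 probes with a gene symbol among 22517 probes on the array. Retinal mRNA had been measured on Illumina RatRef-12 arrays, 1 array per animal, in 19 male Sprague-Dawley rats. Control rats (n = 7) received citrate vehicle. Rats of the STZ group (n = 5) received streptozotocin, a toxin of the insulin-producing beta cells, at 65 mg/kg in the same vehicle. Rats of the STZ + insulin group (n = 7) received the same streptozotocin dose and, from week 6, subcutaneous insulin pellets of 26 mg, with a further pellet when body weight or blood glucose rose too high. Streptozotocin rats entered the study if their blood glucose tested high. The STZ and STZ + insulin groups thus shared the toxin, and every group shared the vehicle, strain and sex. Retinas were taken with their pigment epithelium 3 months after injection, so each value is a mean over all retinal cell types, and fewer cells of a type cannot be told apart from less RNA per cell. Arrays that failed the authors' quality control are not analysed here.

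Max carries no transactivation domain. It dimerises with Myc, Mycl or Mycn to activate genes, and with the Mxd proteins, Mnt or Mga to repress them, and these dimers bind the DNA sequence CACGTG, the E-box. Myc proteins are best known for raising the output of the nucleolus, where RNA polymerase I transcribes ribosomal RNA and assembly factors, helicases and small nucleolar ribonucleoproteins (snoRNPs) turn it into ribosomal subunits. The mature retina is almost free of dividing cells, and cyclin D1 is present there mainly in Müller glia.

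The E-box was looked for because the Max dimers bind it. RefSeq promoter sequences (assembly GRCr8, 250 bases before to 50 after the start each entry uses) were found for 7 of the 10 genes, namely Max, Mycl, Polr1b, Nop58, Ddx18, Ncl and Npm1. The palindrome CACGTG, which reads the same on both strands, was present in the promoters of Max and Ddx18, each once. Both sites are shown 5′ to 3′ on the gene's strand with 12 bases on either side, the E-box in capitals:
Max: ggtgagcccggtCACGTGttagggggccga
Ddx18: ctcggaactgcgCACGTGcatctgtcgctc
The Max window is chr6:101395306-101395335 on the minus strand, and its E-box runs from 33 to 28 bases before the start. The Ddx18 window is chr13:35295968-35295997 on the minus strand, and its E-box runs from 13 to 8 bases before the start. Both sites lay inside the annotated gene, whose span begins further upstream than the start used by the entry. The E-box was found in 6.65% of all 27457 promoters of this length and in 9.43% of the 6158 promoters of tested genes with a symbol. Promoters of tested genes on the 5 nucleolar lists described below held it in 20 of 72 cases (27.8%), and those of the list genes that were higher in STZ + insulin than in STZ rats in 6 of 22 cases (27.3%). A match is only a match of letters in this window.

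The values are background-subtracted signals scaled by the authors to the same mean on every array, here 325, and signals of different genes cannot be set against each other. The mean signal before scaling ranged from 307 to 475 over the 19 arrays. Of 7 photoreceptor markers 5 had a probe, and their mean log2 signal lay between 12.23 and 12.68 on every array. Lens genes varied most: 7 of 14 listed lens markers had a probe, and all 7 were detected in at least 1 whole group. Their mean log2 signal ranged from 6.43 to 11.21 in controls, from 8.40 to 12.64 in STZ rats and from 5.94 to 9.44 in STZ + insulin rats. Pigment epithelium markers (3 of 6 with a probe) varied too, from 6.07 to 8.15, 5.70 to 7.98 and 5.03 to 7.51 in the same order of groups. The 1 detected blood marker of 4 ranged from 11.30 to 12.72, 10.40 to 12.37 and 11.49 to 12.90. The arrays lay on 2 BeadChips (glass slides), with 3 controls, 2 STZ and 4 STZ + insulin rats on BeadChip 1 and 4, 3 and 3 on BeadChip 2. Group differences below are on the log2 scale (signals under 10 set to 10) from limma with all 3 groups in 1 model. The term "adjusted p" means Benjamini-Hochberg adjusted over 10718 probes, those for which some group had a detection p under 0.05 in all its rats, and a gene was called at an adjusted p under 0.05. Of the 10 genes, 9 were tested and were detected on 19 of 19 arrays. Myc was not, and was compared with exact permutation tests.

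**Figure D1:**
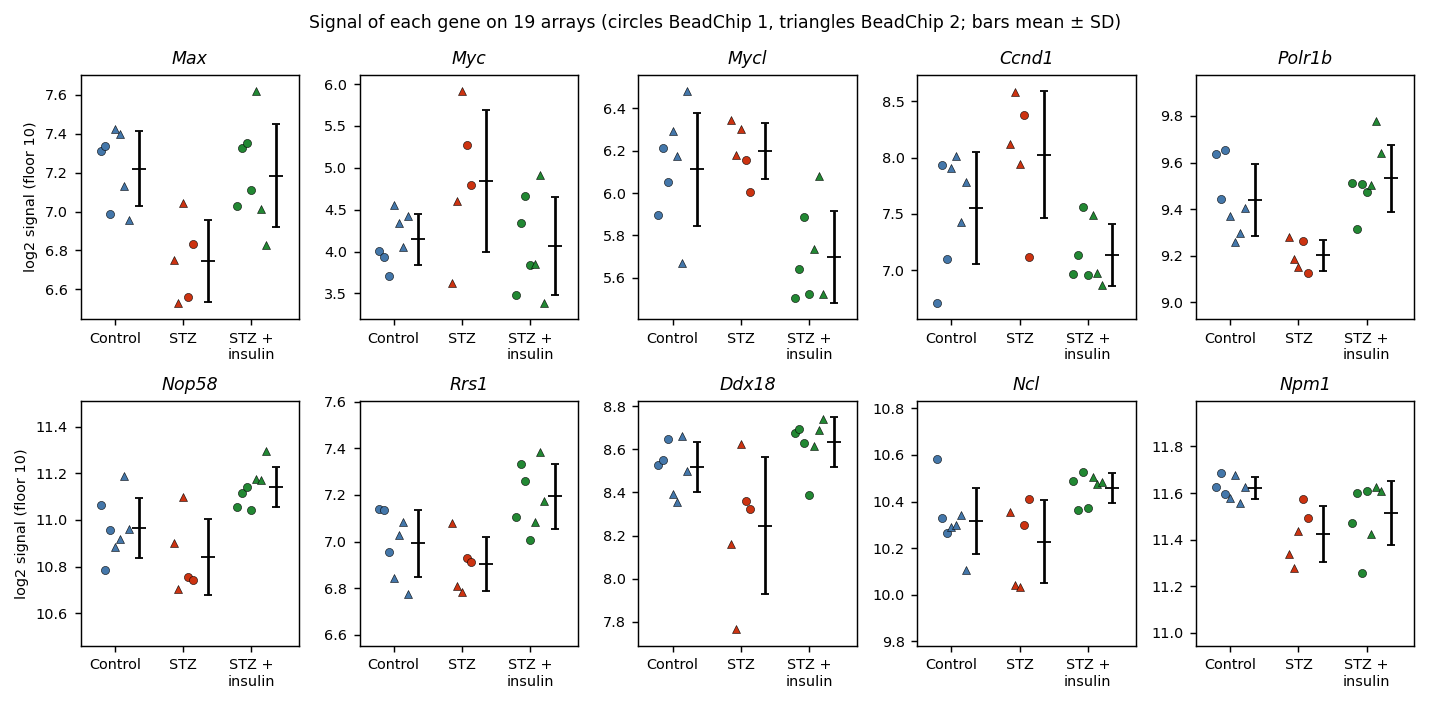
Signal of each of the 10 genes on 19 arrays. The vertical axis is the log2 signal with a floor of 10, each point is 1 rat (circles BeadChip 1, triangles BeadChip 2), and bars give mean ± SD of each group. Polr1b is the gene in which no STZ rat reached the STZ + insulin rats, and Ccnd1 has 1 low STZ rat.

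Max was higher in STZ + insulin than in STZ retinas, and its STZ values lay mostly under those of controls. The Max signal was 108, 92.4, 132, 94.4 and 114 in STZ replicates 1 to 5, against a lowest value of 124, a median of 159 and a highest of 171 in controls. Of the 5 STZ rats 4 lay below every control, and replicate 3 lay within the control range. In STZ + insulin rats the signal was 114 at the lowest, 138 at the median and 197 at the highest, and 4 of the 7 exceeded every STZ rat. On the log2 scale Max averaged 7.22 ± 0.19 (SD, n = 7) in controls, 6.74 ± 0.21 (n = 5) in STZ rats and 7.18 ± 0.27 (n = 7) in STZ + insulin rats. The STZ minus control difference was -0.48 (95% interval -0.75 to -0.21) and did not pass the threshold (limma adjusted p = 0.0531). It lay just past it without STZ replicate 3 (adjusted p = 0.0347) or without STZ + insulin replicate 5 or 7 (0.0463 in each case). Between STZ + insulin and STZ, Max rose by 0.44 (standard error 0.13, adjusted p = 0.0370), 1.36-fold, and 7 of 7 rats lay above the STZ mean. The rise was 0.51 on BeadChip 1 and 0.38 on BeadChip 2. The call was lost without STZ replicate 1, 2 or 4 or STZ + insulin replicate 2, 3 or 5 (adjusted p = 0.0588 to 0.101). It was lost too without both STZ arrays of BeadChip 1 (limma adjusted p = 0.1135). STZ + insulin and control rats differed by -0.04 (95% interval -0.28 to 0.21, adjusted p = 0.972), a value whose sign depended on the scaling.

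Myc, the proto-oncogene of the family, was near the detection limit. Its detection p was under 0.05 in 2 of 7 controls, 4 of 5 STZ rats and 3 of 7 STZ + insulin rats. The signal was 12.4, 24.4, 60.5, 38.7 and 27.8 in STZ replicates 1 to 5, against 13.1, 16.7 and 23.6 (lowest, median and highest) in controls and 10.5, 14.5 and 30.1 in STZ + insulin rats. STZ replicates 2 to 5 lay above every control and replicate 1 lay below every control. An exact two-sided permutation test of the log2 signals gave p = 0.0808 for STZ against control and p = 0.0960 for STZ + insulin against STZ, both 0.144 after adjustment over the 3 Myc comparisons. Since most values of the control and STZ + insulin groups were not above background, no fold is given and these p-values show neither a difference nor its absence.

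Mycl, which encodes L-Myc, was lower in STZ + insulin than in STZ retinas. The signal was 81.2, 72.4, 78.9, 71.4 and 64.3 in STZ replicates 1 to 5 and 51.0, 72.3 and 89.3 (lowest, median and highest) in controls, and the 5 STZ rats all lay within the control range. In STZ + insulin rats it was 45.4 at the lowest, 49.9 at the median and 67.7 at the highest, and 6 of 7 lay below every STZ rat. Mycl fell by 0.50 from STZ to STZ + insulin (standard error 0.13, adjusted p = 0.0200), 1.41-fold, by 0.44 on BeadChip 1 and 0.49 on BeadChip 2. The call was kept with each of the 19 arrays left out (adjusted p = 0.0151 to 0.0456). Against control, STZ + insulin rats were lower by a difference of -0.41 (95% interval -0.65 to -0.17), with 7 of 7 below the control mean, but this did not pass the adjusted threshold (adjusted p = 0.229). STZ and control rats differed by 0.09 (95% interval -0.18 to 0.35, adjusted p = 0.734).

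Ccnd1 encodes cyclin D1, which activates the kinases CDK4 and CDK6 in early cell cycle. Its signal was 277, 383, 245, 332 and 139 in STZ replicates 1 to 5. Controls ranged from 105 to 258 around a median of 221, and STZ + insulin rats from 117 to 189 around a median of 126. Replicates 1 to 4 of the STZ group lay above every STZ + insulin rat, and replicate 5 lay among them. Ccnd1 fell by 0.89 from STZ to STZ + insulin (standard error 0.24, adjusted p = 0.0274), 1.85-fold, by 0.59 on BeadChip 1 and 1.10 on BeadChip 2. Without STZ replicate 1, 2 or 4 or STZ + insulin replicate 6 or 7 the call was lost (adjusted p = 0.0514 to 0.0863). The STZ minus control difference in Ccnd1 was 0.47 (95% interval -0.04 to 0.98, adjusted p = 0.275), and between STZ + insulin and control -0.42 (adjusted p = 0.639). Of 6 listed markers of dividing cells 4 had a probe and 1 was detected in a whole group. Müller glia and astrocyte markers (4 of 6 with a probe) had a mean log2 signal of 11.80 to 12.04 in STZ rats, 11.57 to 11.70 in STZ + insulin rats and 11.66 to 11.98 in controls. From STZ to STZ + insulin, 1 of these 4, Vim, an intermediate filament gene that the lens also expresses, passed the test (fell by 0.93, adjusted p = 0.0152). The other three did not, with differences of -0.17 for Slc1a3, -0.15 for Apoe and 0.18 for Rlbp1.

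Lens genes moved with the same groups. From STZ to STZ + insulin all 7 differed by -4.45 to -2.26 and 6 passed the test. With the lens level of each array as a covariate, the difference between STZ + insulin and STZ was 0.42 for Max, -0.36 for Mycl, -0.42 for Ccnd1, 0.28 for Polr1b, 0.20 for Nop58, 0.34 for Rrs1 and 0.32 for Ddx18. None of them was then called (adjusted p = 0.223 to 0.586), and 2 of 10718 probes were. The part of lens RNA in these differences was not tested.

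**Figure D2:**
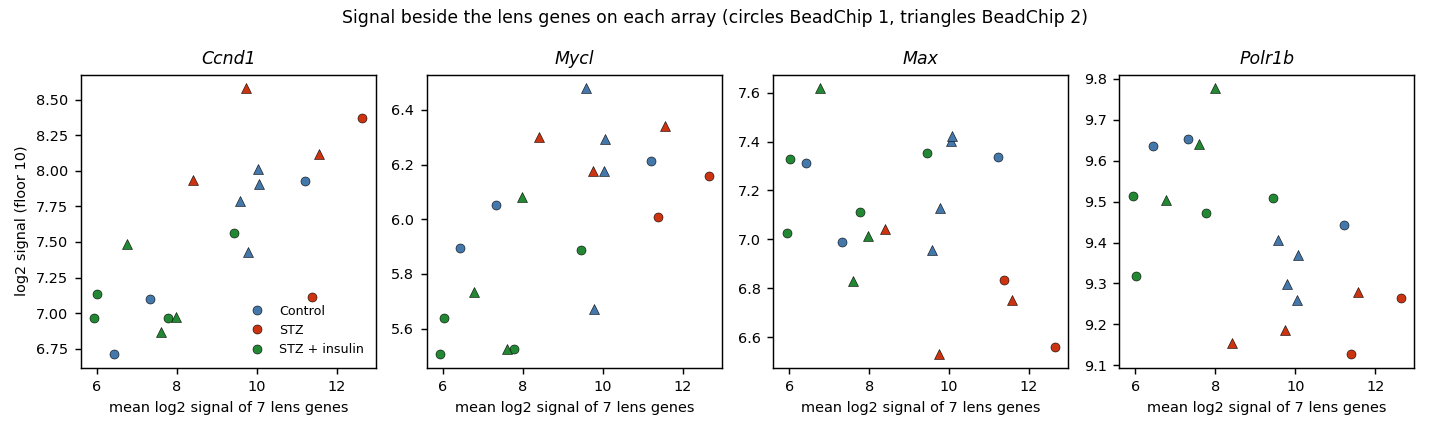
Signal of Ccnd1, Mycl, Max and Polr1b beside the lens genes. The horizontal axis is the mean log2 signal of 7 lens genes, the vertical axis the log2 signal of the gene with a floor of 10, and each point is 1 rat (circles BeadChip 1, triangles BeadChip 2). The STZ + insulin rats lie between 5.94 and 9.44 on the horizontal axis and the STZ rats between 8.40 and 12.64.

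Polr1b, the second-largest subunit of RNA polymerase I, separated the STZ and STZ + insulin rats completely. The Polr1b signal was 621, 582, 569.5, 615 and 559 in STZ replicates 1 to 5, and 638, 728 and 878 (lowest, median and highest) in STZ + insulin rats. Controls lay at 613, 678 and 805. Every STZ rat was thus below every STZ + insulin rat, which held in that direction for 2.21% of the 10718 probes, and 3 of 5 STZ rats were below every control. Polr1b rose by 0.33 with insulin (standard error 0.08, adjusted p = 0.0197), 1.26-fold, by 0.26 on BeadChip 1 and 0.43 on BeadChip 2. It was called with each of the 19 arrays left out (adjusted p = 0.0179 to 0.0452). Without both STZ arrays of BeadChip 1 it was not called (limma adjusted p = 0.0611). Between STZ and control the difference was -0.24 (95% interval -0.41 to -0.06, adjusted p = 0.115), with 5 of 5 STZ rats below the control mean.

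Nop58 is a core protein of the box C/D snoRNPs, which guide methylation of ribosomal RNA. The Nop58 signal was 1915, 1666, 2194, 1729 and 1715 in STZ replicates 1 to 5 and 2108, 2262 and 2511 (lowest, median and highest) in STZ + insulin rats, with controls at 1764, 1985 and 2334. STZ replicate 3 was the one STZ rat inside the STZ + insulin range. Nop58 rose by 0.30 with insulin (standard error 0.08, adjusted p = 0.0245), by 0.34 on BeadChip 1 and 0.31 on BeadChip 2. The call was lost without STZ replicate 2 or 4 (adjusted p = 0.0672 and 0.0597). Between STZ and control the difference was -0.12 (adjusted p = 0.389).

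Rrs1 takes part in assembly of the large ribosomal subunit, a role worked out in yeast. The Rrs1 signal was 135, 112, 110.2, 122 and 121 in STZ replicates 1 to 5 and 129, 145 and 167 (lowest, median and highest) in STZ + insulin rats, with controls at 109, 130.3 and 141. STZ replicate 1 alone reached the STZ + insulin range. Rrs1 rose by 0.29 with insulin (standard error 0.08, adjusted p = 0.0352), by 0.26 on BeadChip 1 and 0.32 on BeadChip 2. Without STZ replicate 2, 3 or 4 or STZ + insulin replicate 2, 3, 6 or 7 it was not called (adjusted p = 0.0530 to 0.0876). The STZ minus control difference in Rrs1 was -0.09 (95% interval -0.27 to 0.09, adjusted p = 0.563). Against control, 7 of 7 STZ + insulin rats lay above the control mean for Rrs1 (difference 0.20, adjusted p = 0.373), as they did for Nop58 (0.18, adjusted p = 0.440), and neither passed.

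Ddx18 encodes a DEAD-box RNA helicase of the nucleolus, and its promoter holds the E-box shown above. Its signal was 286, 218, 394.5, 328 and 320.0 in STZ replicates 1 to 5 and 336, 408 and 427 (lowest, median and highest) in STZ + insulin rats, with controls at 328, 369 and 405. STZ replicate 3 was the one STZ rat inside the STZ + insulin range, and replicate 2 was the lowest of the 19 rats. Ddx18 rose by 0.39 with insulin (standard error 0.11, adjusted p = 0.0308), by 0.26 on BeadChip 1 and 0.50 on BeadChip 2. It was not called without STZ replicate 1 or 2 or STZ + insulin replicate 2, 5, 6 or 7 (adjusted p = 0.0510 to 0.0856). For STZ against control it differed by -0.27 (95% interval -0.50 to -0.04, adjusted p = 0.160).

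Ncl and Npm1 encode nucleolin and nucleophosmin, the abundant nucleolar proteins that bind ribosomal RNA and chaperone histones, and neither was called in any comparison. The Ncl signal was 1309, 1053, 1047, 1261 and 1360.3 in STZ replicates 1 to 5 and 1316, 1432 and 1475 (lowest, median and highest) in STZ + insulin rats. The difference was 0.23 (95% interval 0.06 to 0.40, adjusted p = 0.0773), with 7 of 7 above the STZ mean, and it was called without STZ replicate 5 (adjusted p = 0.0438). The Npm1 signal was 2586, 2482, 2770.1, 3046 and 2886 in STZ replicates 1 to 5 and 3017, 3163 and 3290 (lowest, median and highest) in controls, and 4 of 5 STZ rats lay below every control. The difference between STZ and control was -0.20 (95% interval -0.35 to -0.05, adjusted p = 0.123). STZ + insulin rats, at 2447, 3103 and 3160 (lowest, median and highest), spanned the STZ range, and the difference from STZ was 0.09 (95% interval -0.06 to 0.24, adjusted p = 0.452).

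**Figure D3:**
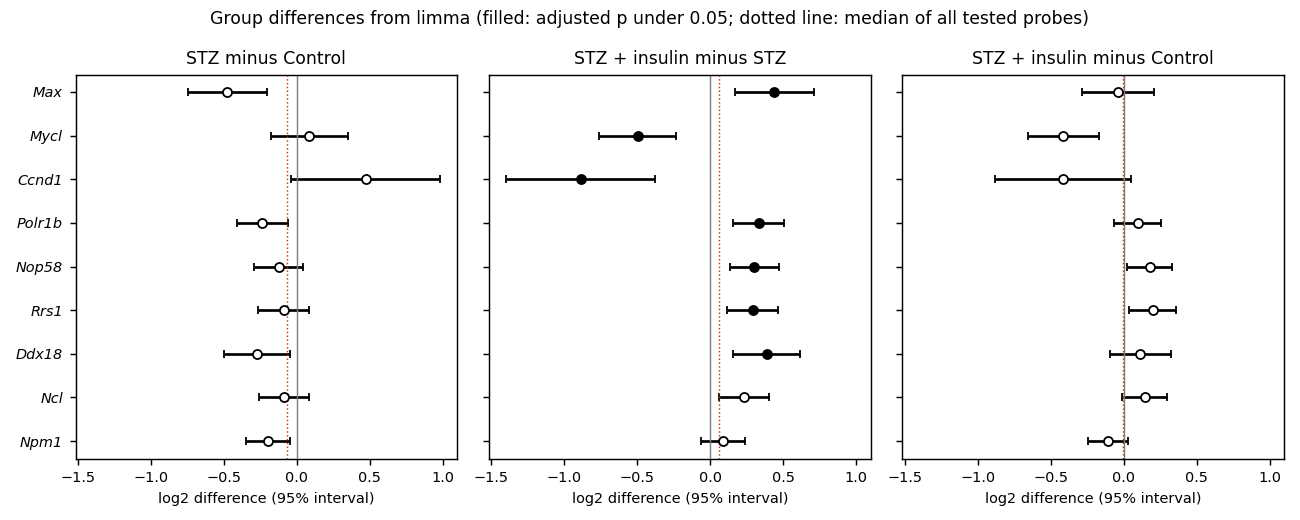
Group differences of the 9 tested genes. The horizontal axes give the log2 difference from limma with its 95% interval, filled points have an adjusted p under 0.05, and the dotted line is the median of all tested probes (-0.07, 0.06 and 0.00 from left to right). Filled points occur in the comparison of STZ + insulin with STZ, 5 to the right of zero and 2 to the left.

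In STZ against control rats 0 of the 9 tested genes were called by limma, against 2.79% of all tested probes (95 or 0.886% higher and 204 or 1.9% lower). The higher probes were 31.8% of those called, a share that became 56.5% after quantile normalization, 56.3% with neqc and 48.3% with median-centred signals. The study's kind of threshold is an unadjusted p under 0.05 and a fold over 1.2. By it Max and Ddx18 were lower, 2 of 9 against 10.2% of probes lower. At an unadjusted p under 0.05 alone Polr1b and Npm1 were lower too, 4 of 9. Of the 10718 probes 2230 passed that p in either direction. The median difference of the 9 genes was -0.12, beside -0.07 over all tested probes. Between STZ + insulin and STZ rats 7 of the 9 were called, Max, Polr1b, Nop58, Rrs1 and Ddx18 higher and Mycl and Ccnd1 lower, against 10.4% of all tested probes (6.49% higher and 3.93% lower). Since the 10 genes were listed with these results known, the count describes them and is no independent evidence. It fell to 2 without STZ replicate 2, to 3 without STZ replicate 4 and to 4 without STZ + insulin replicate 2, 6 or 7. Without both STZ arrays of BeadChip 1 it was 4, namely Mycl, Ccnd1, Ddx18 and Ncl, which was not among the 7. Max, Polr1b, Nop58 and Rrs1 were not called there (limma adjusted p = 0.1135, 0.0611, 0.123 and 0.0821). The mean log2 level of lens genes on the arrays left out was 12.64 and 11.38, beside 11.56, 9.74 and 8.40 on the STZ arrays of BeadChip 2. Over all tested probes the calls fell too in these settings, from 1117 to 549, 659, 735, 721, 707 and 759 in the same order. Between STZ + insulin and control rats 0 of the 9 were called by limma, and 1 of 10718 probes was (0.00933%). By unadjusted p and fold, Mycl was lower there, 1 of 9 against 4.68% of probes. By unadjusted p alone Nop58 and Rrs1 were higher, and 963 of the 10718 probes passed that p in either direction. The comparison of STZ with control and that of STZ + insulin with STZ use the same 5 STZ arrays, so their values are not independent of each other.

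The wider Myc and Max network was measured in part. Of 13 listed genes 9 had a probe and 6 were tested. Between STZ + insulin and STZ 3 of the 6 were called, Max and Mnt higher and Mycl lower, beside 10.4% of all tested probes. Max and Mycl are among the 10 genes listed with these results known. Mycn, Mxd4 and Mlx were not called, with differences of -0.34 (limma adjusted p = 0.0865), 0.06 and 0.07. Mnt, a repressor that binds DNA with Max, rose by 0.35 (adjusted p = 0.0449), by 0.42 on BeadChip 1 and 0.35 on BeadChip 2, but the call was lost without any 1 of 12 arrays, among them STZ replicates 2, 4 and 5 (adjusted p up to 0.108). Of 34 listed growth and cell cycle genes linked to Myc, 23 were tested. Ccnd1 was the 1 called in that comparison, beside 10.4% of all tested probes. Their median difference was 0.05, beside 0.06 over all tested probes. In both lists 0 genes were called between STZ and control by limma. At an unadjusted p under 0.05 there were 3 lower in the network list and 2 higher and 1 lower in the growth list. Of the 10718 tested probes 2230 passed that p in either direction.

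The 5 nucleolar lists, of RNA polymerase I and its factors, snoRNP proteins, ribosome assembly factors, nucleolar RNA helicases and abundant nucleolar proteins, held 80 tested genes, 6 of them described above. Between STZ + insulin and STZ rats 24 of the 80 were called higher and 0 lower, beside 6.49% and 3.93% of all tested probes, and 73 of 80 differences were above zero and 7 below it, where 38.7% of all tested probes lay below zero. Their median difference was 0.21, beside 0.06 over all tested probes. It was 0.13 on BeadChip 1, with 61 of 80 above zero and a median of 0.02 over all tested probes, and 0.31 on BeadChip 2, with 75 of 80 above zero and 0.10 over all tested probes. Without the 6 genes described above, 20 of the remaining 74 were called higher. The gene lists too were chosen with earlier results of these data known, so their counts describe them and are no independent evidence. Between STZ and control 5 of the 80 were called lower and 0 higher, beside 1.9% and 0.886% of all tested probes. The differences of 74 of 80 were below zero, as were 64.7% over all tested probes, and the median was -0.20, beside -0.07. Between STZ + insulin and control 0 of the 80 were called by limma, and the median was 0.03. At an unadjusted p under 0.05 there were 6 of the 80 (all higher), beside 963 of the 10718 tested probes in either direction. The count of 24 fell to 9 without STZ replicate 2 and to 13 without STZ replicate 4. It was 14, 12, 15 and 15 without STZ + insulin replicates 2, 6, 5 and 7. Without both STZ arrays of BeadChip 1 it was 16, and with the lens level as a covariate 0. Calls over all tested probes fell from 1117 to 549, 659, 735, 721, 711, 707, 759 and 2 in the same order. With that covariate 74 of the 80 differences were above zero, with a median of 0.24, beside 0.04 over all tested probes. The part of lens RNA in these list differences was not tested. The count of 5 lower between STZ and control ranged from 2 (without control replicate 1) to 8 (without STZ replicate 5) with 1 array left out. In these 2 settings 104 and 349 of all tested probes were called, in place of 299.

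**Figure D4:**
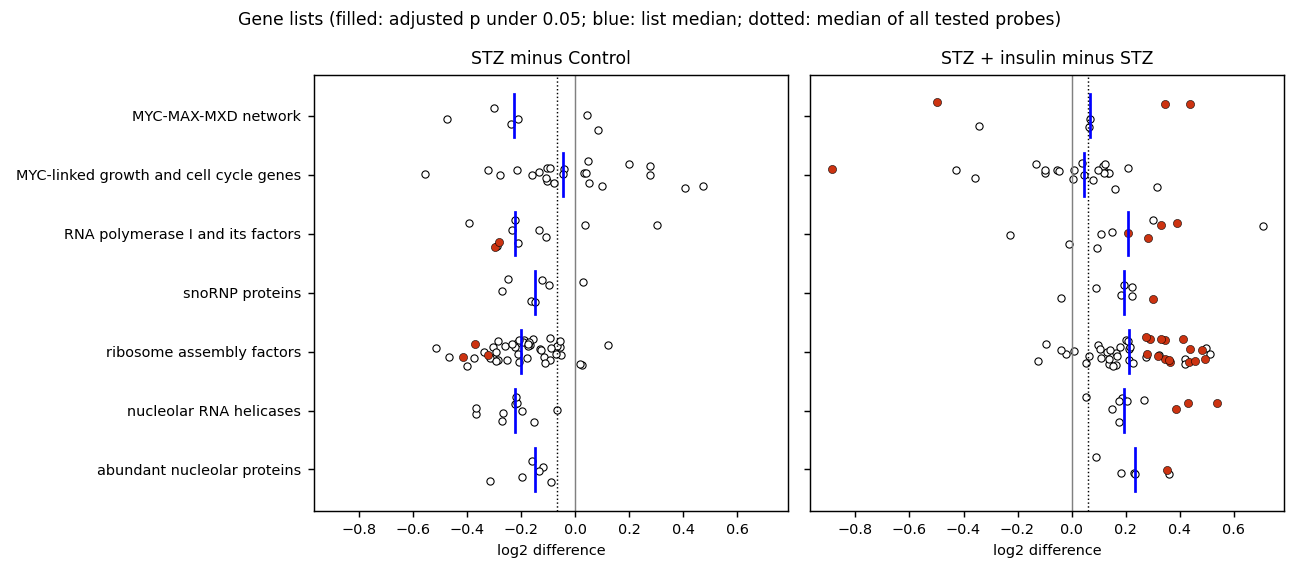
Log2 differences of the tested genes of 7 lists, each point 1 gene, for STZ minus control (left) and STZ + insulin minus STZ (right). Filled points have an adjusted p under 0.05, blue bars are list medians and the dotted line is the median of all tested probes. On the right 24 genes of the 5 nucleolar lists are filled, all to the right of zero.

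Within RNA polymerase I and its factors (11 of 15 tested), Polr1b, Polr1c, Polr1f and Taf1c rose from STZ to STZ + insulin. Of all tested probes 6.49% were called higher there. Polr1f, a further polymerase subunit, fell by 0.30 from control to STZ (adjusted p = 0.0234) and rose by 0.39 with insulin (standard error 0.06, adjusted p = 0.00269), by 0.39 on BeadChip 1 and 0.38 on BeadChip 2. Taf1c, a subunit of the factor that recruits the polymerase to ribosomal DNA, fell by 0.28 (adjusted p = 0.0444) and rose by 0.28 (adjusted p = 0.0207), but mainly on BeadChip 2, where the differences were -0.40 and 0.41, with -0.09 and 0.09 on BeadChip 1. Polr1c, which RNA polymerase III also contains, rose by 0.21 (adjusted p = 0.0423). The rise of Polr1f was called with every array left out, that of Taf1c was lost without STZ replicate 2 (adjusted p = 0.0574) and that of Polr1c without any 1 of 13 arrays (adjusted p up to 0.0744). The fall of Polr1f was lost without control replicate 1 (adjusted p = 0.0502) and that of Taf1c without any 1 of 15 arrays, all 7 controls among them (adjusted p up to 0.113).

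Of the ribosome assembly factors 46 of 76 were tested. From STZ to STZ + insulin 15 were called higher and 0 lower, beside 6.49% and 3.93% of all tested probes. Rpf1 and Rpf2, which in yeast act in assembly of the large subunit, fell from control to STZ by 0.42 (adjusted p = 0.0160) and 0.37 (0.0220). With insulin Rpf1 rose by 0.49 (adjusted p = 0.00341) and Rpf2 by 0.37 (0.0103). Nol10, which belongs to small subunit assembly, rose by 0.48 (adjusted p = 0.00385), Mphosph10, of the U3 particle, by 0.46 (adjusted p = 0.0134), Nle1 by 0.41 (adjusted p = 0.00953) and Rrp15 by 0.36 (adjusted p = 0.0164). These 6 rises were called with every array left out. They measured 0.23 to 0.44 on BeadChip 1 and 0.32 to 0.71 on BeadChip 2, with Rpf2 the 1 that was larger on BeadChip 1. Over 37 alternative settings each of these 6 lost its call in 2 to 6. Without both STZ arrays of BeadChip 1 the rise of Rpf2 was not called (limma adjusted p = 0.0556). Nol10 also fell by 0.32 from control to STZ (adjusted p = 0.0466), with differences of -0.17 on BeadChip 1 and -0.43 on BeadChip 2, a call lost without any 1 of 16 arrays (adjusted p up to 0.126). Of the snoRNP proteins 7 of 13 were tested, and Nop58 was the 1 called, beside 10.4% of all tested probes between STZ + insulin and STZ.

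Of the nucleolar helicases 10 of 15 were tested, and Ddx18, Ddx31 and Ddx52 rose with insulin, beside 6.49% of all tested probes called higher. Ddx31 rose by 0.54 (adjusted p = 0.0485) and Ddx52 by 0.43 (adjusted p = 0.0362), but both rises came mainly from BeadChip 2, at 0.99 and 0.77, with 0.10 and 0.09 on BeadChip 1. From control to STZ 0 of the 10 helicases were called by limma, and 10 of 10 were below zero, where 64.7% of all tested probes were. Of the 10, 5 were lower at an unadjusted p under 0.05, which 2230 of the 10718 tested probes passed in either direction. Among the abundant nucleolar proteins (6 of 8 tested), Nop53, which binds the large subunit precursor, was the 1 called higher (0.35, adjusted p = 0.0495). The share of all tested probes was again 6.49%. The calls of Ddx31, Ddx52 and Nop53 were lost without any 1 of 15, 7 and 16 arrays (adjusted p up to 0.145, 0.111 and 0.0973).

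The genes most like Max across the 19 arrays were Mtm1 (Pearson r = 0.859), Mkrn1 (0.805), Fbxo28 (0.804), Def8 (0.797) and Smpd1 (0.791), among 7345 tested genes. With each group's mean removed, r was 0.765, 0.582, 0.604, 0.599 and 0.571 in the same order, over arrays that also share scaling and BeadChip. The genes above were picked for the highest r over all arrays, so every other gene had to lie below them. By r over all arrays the nucleolar genes ranked 564 (Ddx18), 1144 (Nop58), 1230 (Ncl), 1595 (Rrs1), 2349 (Polr1b) and 2568 (Npm1) of 7345. With group means removed their ranks were 2531, 3030, 2063, 3112, 7128 and 6288 in the same order. Over all arrays r with Max was 0.487 for Ddx18, 0.401 for Nop58, 0.390 for Ncl, 0.345 for Rrs1, 0.264 for Polr1b and 0.240 for Npm1, and with group means removed it was 0.113, 0.072, 0.158, 0.066, -0.421 and -0.231. Within groups the nucleolar genes that stayed closest were Nop58 with Ddx18 (r = 0.594) and Rrs1 with Ncl (r = 0.584). Mycl and Ccnd1 had r = 0.690 over all arrays and 0.491 with group means removed.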

How the data were processed

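Retinal RNA of 19 rats was hybridised to 1 array each. The authors summarised bead intensities, subtracted the background and scaled arrays to a common mean in GenomeStudio (version 1.0.6 in the submitters' processing notes), and deposited these average-normalized intensities on a linear scale, the intensities before normalization, and a detection p-value for each signal. A further deposited value table was identical for 22517 of 22517 probes, and on each array normalization amounted to a shift and a factor (departures up to 0.01). The table before normalization holds 19 more detection columns, left unused. Probes were named through the platform annotation (13259 with 1 symbol, 9258 without). Signals under 10 were set to 10 and put on the log2 scale. limma 3.58.1 (R 4.3.3) was fitted to the 10718 detected probes, all 3 groups in 1 model without covariates, with Benjamini-Hochberg adjustment. Exact permutation tests used scipy 1.17.1, and tables and figures pandas 2.3.3, numpy 2.4.6 and matplotlib 3.10.9. On 5 simulated data sets of STZ minus Control (10718 probes), 200 probes were shifted by 1 (log2). The fit called 92.7% of the shifted probes and, on average, 11.6 unshifted ones. Noise was drawn independently for each probe, and the shift was larger than the main difference of any tested gene among the 10 listed. The simulation thus does not describe smaller differences or variation that probes share. Per gene the probe with the highest mean signal was taken. Named genes were the 10 listed, up to 6 called genes per list and the 5 most like Max. The genes, lists and tests were chosen with earlier results of these data known. Gene lists were described by counts and medians only. The alternatives covered floors, detection filters, scaling, array weights, the methods' t-test, the replicate number and the BeadChip as blocks, each BeadChip alone, a lens covariate and each array left out. Leaving out both STZ arrays of BeadChip 1 was added later, with the values in view. The number of arrays limits the precision, and sequences of the probes were not used here.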

Additional observations from a re-analysis of the deposited data

Results flagged for a closer look

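Over the 10 genes and 3 groups, 30 sets of arrays were examined for 1 array far from the rest of its group by Dixon's criterion, of which chance alone would give about 1 in 20. The Ddx18 signal of STZ + insulin replicate 4 was the 1 that stood apart. Its log2 signal was 8.39, the next lowest of the 7 rats stood at 8.61, and this gap was 0.639 of the group's range. Without that rat Ddx18 was still called between STZ + insulin and STZ.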

How the results depend on the processing

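With unadjusted p under 0.05 and a fold over 1.2, 1534, 2095 and 655 probes were called for STZ against control, STZ + insulin against STZ and STZ + insulin against control, in place of 299, 1117 and 1, with 2, 7 and 1 of the 9 tested genes, and 20 nucleolar list genes for STZ against control in place of 5. In the order of the first 2 comparisons, probes called numbered 107 and 595 without a detection filter, 154 and 347 with the methods' t-test, 102 and 584 with only the groups compared, 9 and 8 on BeadChip 1 alone, 0 and 355 on BeadChip 2 alone (by limma, with few arrays), and 115 and 2 with the lens covariate. Signals centred on the array median gave 147 probes for STZ against control. In place of 7 genes called between STZ + insulin and STZ there were 3 without a filter, 2 with the t-test and 3 with only the groups compared. There were 0 on BeadChip 1, 1 on BeadChip 2 and 0 with the lens covariate. Without both STZ arrays of BeadChip 1, an alternative chosen after seeing the data, there were 4, among them Ncl, which was not among the 7. The 24 nucleolar list genes became 14, 7, 7, 0, 9 and 0 in the first 6 of these settings. For STZ against control the 5 list genes became 8 at a detection p under 0.01 or with an intensity trend, 3 without a filter, with only the groups compared or with the lens covariate, 2 with quantile normalization or neqc, 1 with median-centred signals and 0 on either BeadChip alone, and 1 of the 9 genes (Max) was called at a detection p under 0.01, with an intensity trend or with median-centred signals. For STZ + insulin against control the 1 probe became 2 with quantile normalization, 3 with neqc, 4 on BeadChip 2 and 101 with array weights, and 0 with a floor of 50, a detection p under 0.01, no filter, median-centred signals, an intensity trend, the t-test, the lens covariate or BeadChip 1. Leaving out 1 array gave 104 to 387, 549 to 1512 and 1 to 19 probes in the 3 comparisons, 0 to 1, 2 to 8 and 0 of the 9 genes, and 2 to 8 and 9 to 26 list genes in the first 2. Replicate numbers did not pair the rats (correlations of same-numbered deviations from -0.176 to 0.21). With the replicate block 80, 482 and 0 probes were called, 1 gene (Max, adjusted p = 0.0491) and 1 gene (Max, 0.0312) in the first 2 comparisons, and 0 and 6 list genes. Signs turned for Npm1 between STZ + insulin and STZ on BeadChip 1 (-0.0496), for Polr1b between STZ + insulin and control on BeadChip 1 (-0.125), and for Max between STZ + insulin and control with quantile normalization (0.0019), neqc (0.0030), median-centred signals (0.0061), array weights (0.0070) and without STZ + insulin replicate 7 (0.0226, the highest of -0.1092 to 0.0226 over the arrays left out). The cause of these changes was not tested. Signals near the detection limit, such as that of Myc, limit what these arrays can show.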
